A study of Mus musculus with 6 samples.

Results

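The RMER repeats are rodent repeat families, many of them the remains of endogenous retroviruses, and their names in the deposited repeat counts start with RMER. A search of the 1217 repeat names for that prefix found 43 names, of which 8 belong to RMER17 and 35 to other RMER families. Each name sums all its copies in the genome, so a value says nothing of which copy was transcribed, and the files give neither the class nor the positions of the copies. RMER17 was set apart because RMER17A-int had stood out between knockout and control embryos in an earlier look at these counts. Differences between the groups are therefore given as descriptions of these 6 embryos, and where a fit over all repeat names includes the RMER names, nothing about RMER17 is read from its calls.

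The libraries came from polyadenylated RNA of whole mouse embryos at E10.5, 3 in each of 2 groups, on a mixed background of C57BL/6, CD1 and 129. Knockout embryos had the genotype H3f3afl/-; H3f3bfl/-, with a null and a floxed allele of both genes of histone H3.3, and control embryos H3f3afl/+; H3f3bfl/+. All embryos carried Sox2-CreTg/0, a recombinase transgene active in the epiblast, from which the embryo proper forms, and all were Trp53-/-, so both groups lacked p53 and the floxed alleles of the controls were open to deletion as well. The labels do not say whether the embryos were littermates or whether RNA was pooled, so errors cover only the spread between these libraries.

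A retrovirus that inserts into the germ line leaves a copy with an internal part, which once coded for viral proteins, between a pair of long terminal repeats (LTRs) that hold the promoter and the signal for the end of the transcript. Recombination between the LTRs often removes the internal part and leaves a solitary LTR. Names that end in -int stand for internal parts, and RMER17 names without that ending are LTRs of the ERVK class, to which the intracisternal A particle (IAP) and early transposon (ETn) elements also belong. In mouse embryonic stem cells such elements are silenced by repressive methylation of histone H3, set by Setdb1 with Trim28, and H3.3 is deposited at many of them by Atrx and Daxx.

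The libraries held 24952853 to 27871038 gene counts in knockouts and 27775576 to 30461689 in controls, and levels are given as CPM, which here are counts scaled to 1000000 gene counts of the same library. H3f3a had 72.9, 62.8 and 71.6 CPM in knockouts 1, 2 and 3, against 323, 354 and 349 CPM in controls 1, 2 and 3, and H3f3b had 487, 490 and 410 CPM against 647, 702 and 682 CPM. Alignments outside genes made up 18.3%, 10.6% and 18.0% of those in knockouts 1, 2 and 3, and 9.79%, 10.7% and 13.1% in controls 1, 2 and 3. Knockout 2 thus lay within the range of the controls in this share, and knockouts 1 and 3 lay above it.

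RMER17A and RMER17A-int, the LTR and the internal part that share a name, were higher in all 3 knockouts, and most of all in knockout 2. RMER17A had 24.8, 35.5 and 28.0 CPM in knockouts 1, 2 and 3, from 620, 985 and 781 counts, against 13.7, 14.0 and 16.4 CPM in controls 1, 2 and 3, from 417, 426 and 455 counts. The internal part RMER17A-int had 17.8, 36.2 and 23.3 CPM in the knockouts, from 443, 1005 and 649 counts, against 9.22, 11.6 and 10.7 CPM in the controls, from 281, 352 and 297 counts. For both names the lowest knockout lay above the highest control, and knockout 2 was the highest of the 6 embryos.

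RMER17A averaged 29.4 ± 5.44 CPM in knockouts and 14.7 ± 1.47 CPM in controls (SD, n = 3 each), a log2 fold change of 1.00 ± 0.24 (SE). RMER17A-int averaged 25.7 ± 9.45 CPM in knockouts and 10.49 ± 1.18 CPM in controls (SD, n = 3 each), 2.45-fold higher, at 1.29 ± 0.30 on the log2 scale. Counts of the internal part per count of the LTR were 0.715, 1.02 and 0.831 in knockouts 1, 2 and 3, against 0.674, 0.826 and 0.653 in controls 1, 2 and 3. This ratio overlapped between the groups, and it too was highest in knockout 2.

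**Figure D1:**
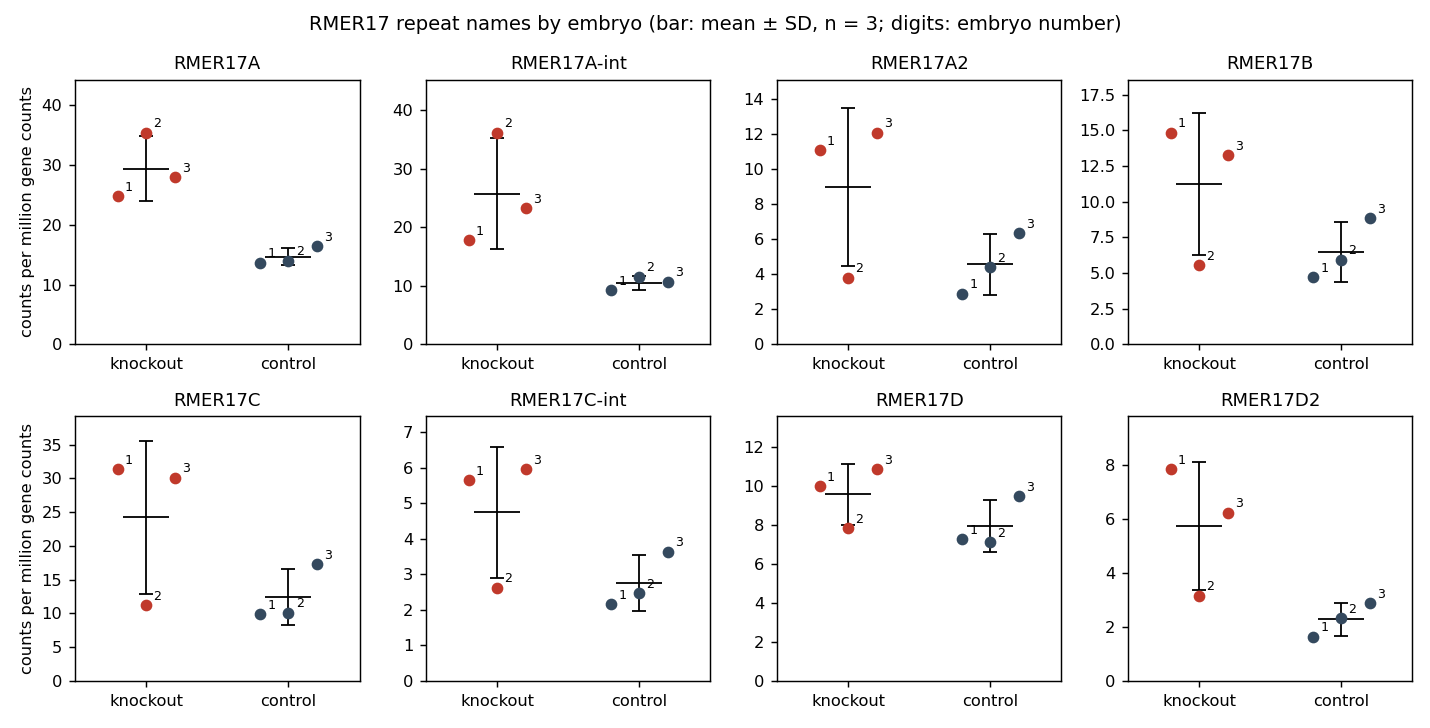
CPM of the 8 RMER17 names, with knockouts (red) left of controls (dark) in each panel, 1 point per embryo numbered 1 to 3, and bars for the mean ± SD. In RMER17A and RMER17A-int knockout 2 is the highest embryo, while in the other 6 names knockout 2 is the lowest knockout.

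The other 6 RMER17 names showed a different order of embryos, with knockouts 1 and 3 high and knockout 2 near the controls. RMER17C, an LTR with about as many counts as RMER17A-int, had 31.3, 11.2 and 30.1 CPM in knockouts 1, 2 and 3, against 9.91, 10.1 and 17.3 CPM in controls 1, 2 and 3. Its internal part RMER17C-int had 5.65, 2.63 and 5.96 CPM in the knockouts, against 2.17, 2.46 and 3.64 CPM in the controls. In both, knockout 2 lay between the controls, so the groups overlapped.

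RMER17A2 is named as a variant of RMER17A, yet it did not share its order. It had 11.1, 3.78 and 12.1 CPM in knockouts 1, 2 and 3, against 2.89, 4.40 and 6.34 CPM in controls 1, 2 and 3. RMER17B had 14.8, 5.54 and 13.2 CPM in the knockouts, against 4.69, 5.91 and 8.82 CPM in the controls. Knockout 2 was again within the controls for both LTRs.

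RMER17D2 was the only one of these 6 names whose groups did not overlap, with 7.85, 3.17 and 6.24 CPM in knockouts 1, 2 and 3, against 1.64, 2.33 and 2.88 CPM in controls 1, 2 and 3. Its log2 fold change of 1.33 ± 0.40 (SE) was the highest of the RMER names, but knockout 2 exceeded control 3 by a small margin, with 88 counts against 80. RMER17D was the flattest RMER17 name, at 10.02, 7.85 and 10.9 CPM in the knockouts against 7.29, 7.13 and 9.50 CPM in the controls, a log2 fold change of 0.26 ± 0.25. Log2 fold changes of the remaining 4 names lay between RMER17C-int at 0.78 ± 0.39 and RMER17A2 at 0.98 ± 0.47.

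Summed over its 8 names, RMER17 had 123, 106 and 130 CPM in knockouts 1, 2 and 3, against 51.5, 57.9 and 75.5 CPM in controls 1, 2 and 3. The sums did not overlap, with means of 120 ± 12.4 CPM in knockouts and 61.6 ± 12.4 CPM in controls (SD, n = 3 each) and a log2 ratio of the means of 0.96 ± 0.19 (SE). The even sums hid unlike parts. RMER17A and RMER17A-int made up 34.5%, 67.7% and 39.5% of RMER17 counts in knockouts 1, 2 and 3, against 44.5%, 44.2% and 35.8% in controls 1, 2 and 3. Without that pair the other 6 names summed to 80.8, 34.2 and 78.5 CPM in the knockouts, against 28.6, 32.3 and 48.5 CPM in the controls, and the groups overlapped. The pair alone summed to 42.6, 71.6 and 51.3 CPM in the knockouts, against 22.9, 25.6 and 27.1 CPM in the controls, and was apart.

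Of the 35 RMER names outside RMER17, 31 had counts. All 31 had log2 fold changes above 0, with groups that overlapped, but only 18 when scaled by TMM factors of the repeat counts, which moves the median of all repeat names from 0.54 to 0.02. The 4 without counts were RMER3D1, RMER3D2, RMER3D3 and RMER3D4, each at 0 in every library. A count of 0 allows up to 3 counts per library, which is 0.108 to 0.120 CPM in knockouts and 0.0985 to 0.108 CPM in controls, for counting error only. Their internal counterpart RMER3D-int had counts in every embryo, at 24.9, 12.6 and 26.0 CPM in knockouts 1, 2 and 3 against 17.0, 18.5 and 24.0 CPM in controls 1, 2 and 3. Knockout 2 was the lowest of the 6 embryos in RMER3D-int, and the log2 fold change of 0.09 ± 0.32 was the smallest of the RMER names.

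Summed over the 35 names, the other RMER repeats had 1012, 536 and 1011 CPM in knockouts 1, 2 and 3, against 492, 577 and 721 CPM in controls 1, 2 and 3. Knockout 2 lay between controls 1 and 2. The means were 853 ± 275 CPM in knockouts and 597 ± 116 CPM in controls (SD, n = 3 each), a log2 ratio of 0.52 ± 0.34 (SE), which is within 2 SE of 0.

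RMER15, the name with the most counts, changed least among the abundant ones, with 93.9, 67.2 and 94.7 CPM in knockouts 1, 2 and 3 against 64.7, 74.0 and 80.5 CPM in controls 1, 2 and 3. RMER19B had 97.3, 49.5 and 93.6 CPM in the knockouts, against 47.3, 54.3 and 71.9 CPM in the controls. RMER6A had 90.6, 40.9 and 95.5 CPM in the knockouts, against 36.5, 44.0 and 61.1 CPM in the controls. All 3 names had knockout 2 within the range of the controls. The next 5 by mean level, RMER4B, RMER1B, RMER4A, RMER12 and RMER5, averaged 58.7 ± 13.3, 49.4 ± 12.9, 48.8 ± 17.9, 39.4 ± 13.0 and 36.2 ± 10.3 CPM in knockouts, against 43.0 ± 6.14, 34.2 ± 7.08, 32.1 ± 7.43, 26.8 ± 5.31 and 25.9 ± 5.63 CPM in controls (SD, n = 3 each), in the same order. Levels of different names are not per length, since the summed length of the copies is not known here.

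By family, with those named here chosen after their values were seen, the folds outside RMER17 ran from 1.07 for RMER3, 1.18 for RMER15, 1.23 for RMER20 and 1.29 for RMER21 up to 1.88 for RMER2, 1.98 for RMER10 and 2.04 for RMER13. RMER10 summed to 53.3, 20.0 and 55.9 CPM in knockouts 1, 2 and 3, against 17.6, 18.4 and 29.1 CPM in controls 1, 2 and 3, and RMER13 to 37.6, 12.3 and 35.4 CPM against 9.36, 12.6 and 19.8 CPM. RMER20 differed less, at 28.1, 16.7 and 25.4 CPM in the knockouts against 16.9, 19.8 and 20.4 CPM in the controls. In RMER10, RMER13 and RMER20 knockouts 1 and 3 lay above the other 4 embryos, and in RMER20 knockout 2 lay just below every control. RMER17 was the only family of the 16 whose sums did not overlap, but it had been chosen through RMER17A-int in these same embryos. Without RMER17A and RMER17A-int its sums overlapped, at 34.2 CPM in knockout 2 against 48.5 CPM in control 3. Its fold with all names was 1.94, below those of RMER10 and RMER13, so nothing particular to RMER17 is read from this.

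**Figure D2:**
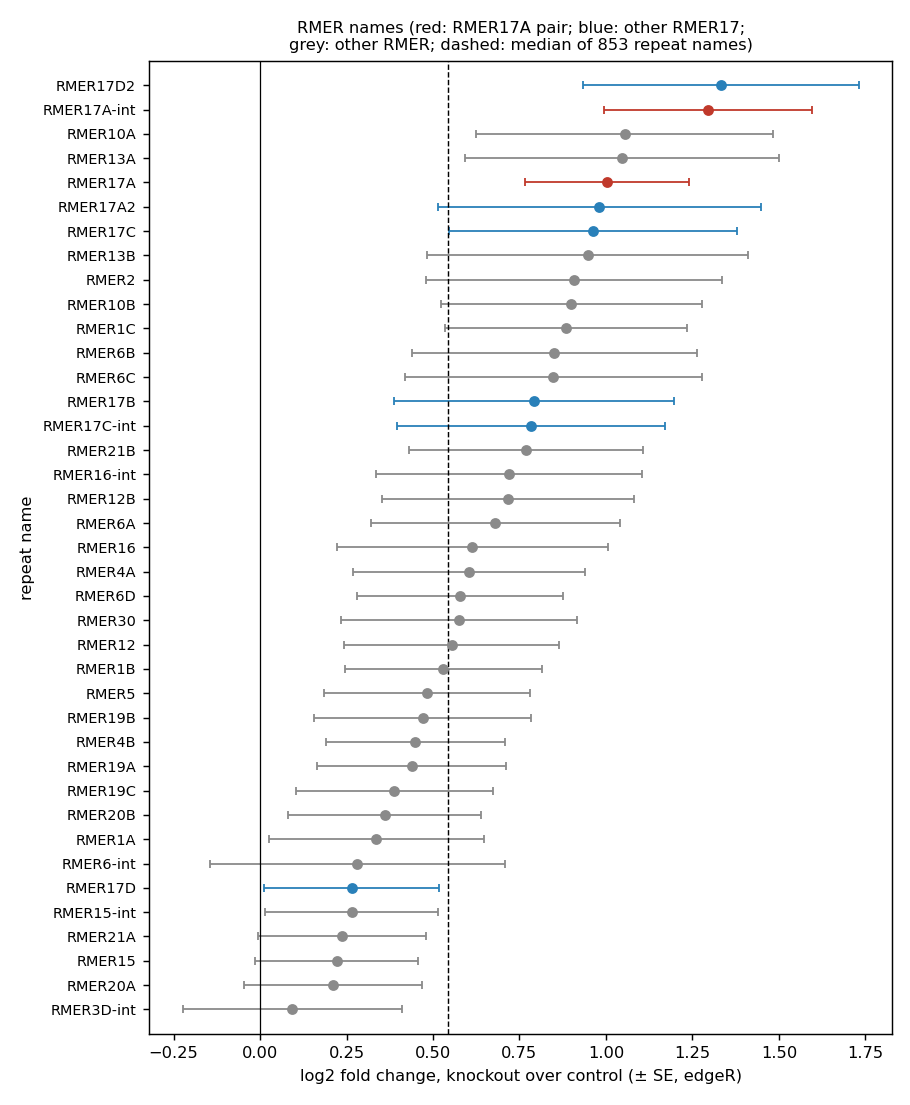
Log2 fold change, knockout over control, with its SE from edgeR for the 39 RMER names with counts, ordered by size, with the median of all 853 repeat names tested as a dashed line at 0.54. RMER17D2 at 1.33 and RMER17A-int at 1.29 lead, RMER17D at 0.26 lies among the lowest, and the error bars of most names reach the dashed line.

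These values were read against all repeat names. With edgeR's quasi-likelihood test on 853 names that passed a filter on low counts, 0% were called higher and 0% lower in the knockouts at a Benjamini-Hochberg adjusted p under 0.05, and none of the 39 RMER names tested was called. At an unadjusted p under 0.05 there were 99 of all names and 8 of the RMER names, while DESeq2 called 2 names, RMER17A-int and ETnERV3-int, 0.234% of those tested. Because RMER17 was chosen from this contrast, nothing is read from the call of RMER17A-int. Median log2 fold changes were 0.97 for the 8 RMER17 names and 0.57 for the 31 other RMER names tested, beside 0.54 over all 853 names, of which 803 were above 0. The summed counts of all repeat names were not higher, with a log2 ratio of -0.23 ± 0.19 (SE) and groups that overlapped. RMER17 was chosen through RMER17A-int, and the 6 RMER17 names without it and RMER17A had a median of 0.88. Groups were apart, with knockouts higher, for 3 of 39 RMER names and for 10.3% of all names tested, and apart with knockouts lower for none of the RMER names and 0.586% of all.

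The order of the embryos was shared by nearly all RMER names and by most repeat names outside RMER. Knockout 2 was the lowest knockout for 37 of 39 names with counts, all but RMER17A and RMER17A-int, and for 93.4% of all repeat names tested. Knockouts 1 and 3 were both above every control for 38 names, all but RMER6-int, and knockout 2 was no higher than the highest control for 36, all but the pair and RMER17D2, beside 83.9% and 88.0% of all repeat names. Among the controls, control 3 was the highest for 38 names, all but RMER17A-int, and control 1 the lowest for 36, beside 84.9% and 76.6% of all repeat names. The highest knockout was 2.04-fold above the lowest at the median of the 39 names, and the highest control 1.58-fold above the lowest. Against the mean of the controls, the 31 other RMER names had medians of 0.82, -0.14 and 0.81 on the log2 scale in knockouts 1, 2 and 3 and of -0.34, -0.06 and 0.32 in controls 1, 2 and 3. The 814 tested names outside RMER had nearly the same medians, 0.77, -0.12 and 0.78 in the knockouts and -0.26, -0.06 and 0.26 in the controls. RMER17A-int stood at 0.76, 1.79 and 1.15 in the knockouts, so its distance from the other names was widest in knockout 2.

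**Figure D3:**
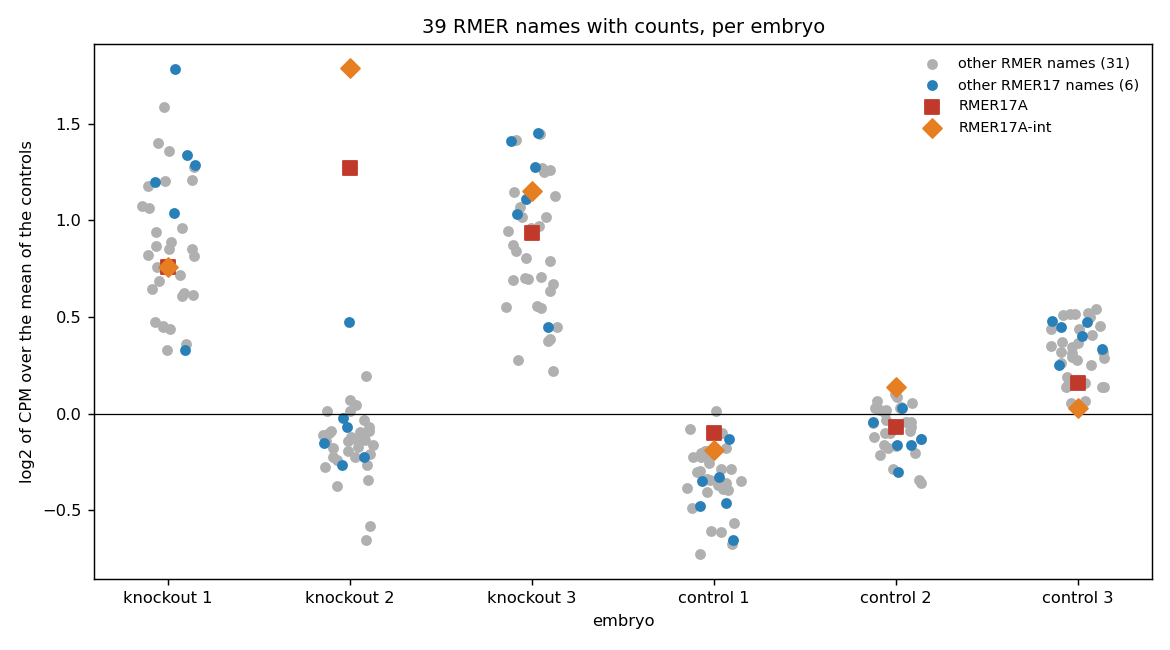
Log2 of CPM over the mean of the controls for each of the 39 RMER names with counts, per embryo, knockouts left of controls, with 31 other RMER names in grey, 6 RMER17 names in blue, RMER17A as red squares and RMER17A-int as orange diamonds. In knockouts 1 and 3 the pair lies inside the cloud of the other names, and in knockout 2 it lies at 1.27 and 1.79, above all of them.

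The share of alignments outside genes moved with these levels. Knockouts 1 and 3, with 18.3% and 18.0% outside genes, had 1012 and 1011 CPM in the other RMER names, and control 3, highest of the controls at 13.1%, had 721 CPM. Knockout 2, at 10.6%, had 536 CPM, between controls 1 and 2 at 9.79% and 10.7%. RMER17A and RMER17A-int did not keep to this order, since their sum was highest in knockout 2. Repeat counts can come from reads inside or outside genes, and the part of the share outside genes in the RMER levels was not tested in other embryos.

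With that share as a covariate, chosen after seeing the data, the log2 fold change of RMER17A was 1.17 ± 0.12 (SE) and that of RMER17A-int 1.65 ± 0.17, while the median of the other RMER names was -0.09. The median of all 8 RMER17 names was -0.008, with 4 of them above 0. RMER17D2 was at 0.55 ± 0.23, and RMER17A2, RMER17B, RMER17C, RMER17C-int and RMER17D lay between -0.14 and 0.007. In that fit edgeR called 1.06% of all names higher and 0.821% lower at a Benjamini-Hochberg adjusted p under 0.05. RMER17A, RMER17A-int and RMER3D-int, the last at -0.57 ± 0.12, were among them, but the pair had been chosen from the same embryos and the covariate after their values were seen, so nothing is read from these calls. Knockout 2 is the only knockout within the range of the controls in this share, so the fit rests mostly on that embryo. Without knockout 2 and without the covariate, edgeR called 63.9% of all names higher and 0.223% lower, and 33 of 39 RMER names, all higher, from which nothing is read about RMER17 either. In that fit RMER17A and RMER17A-int were at 0.85 ± 0.18 and 0.97 ± 0.20, close to the median of 0.83 for the other RMER names.

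**Figure D4:**
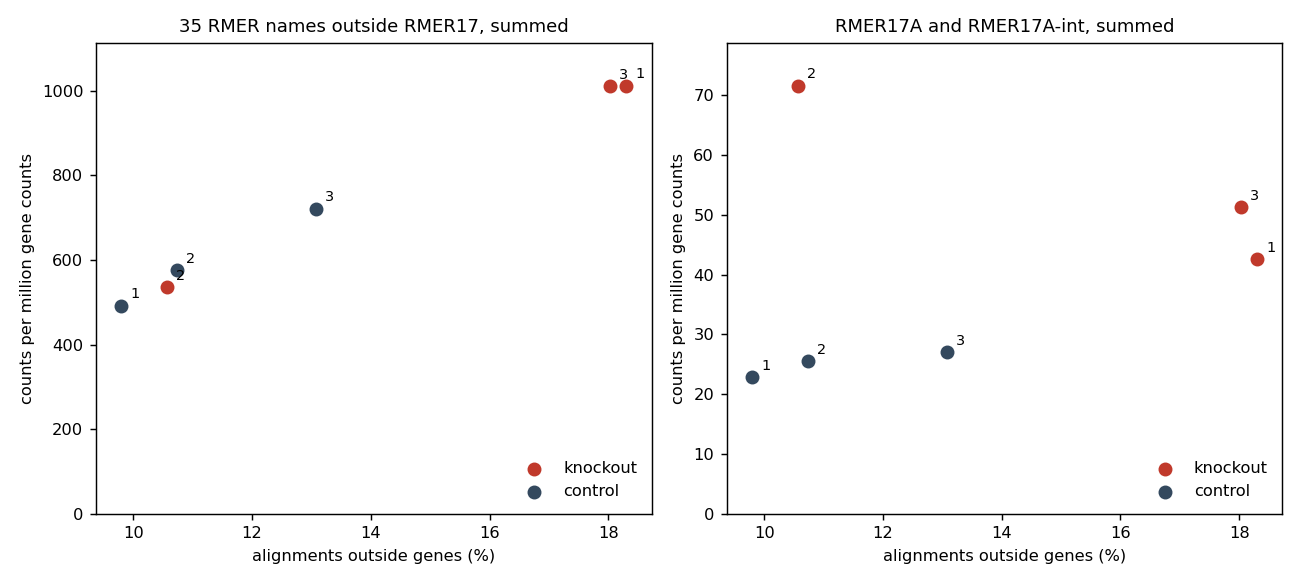
Summed CPM against the percentage of alignments outside genes, 1 point per embryo, for the 35 RMER names outside RMER17 (left) and for RMER17A with RMER17A-int (right), knockouts in red and controls in dark. In the left panel knockout 2, at 536 CPM, sits among the controls, and in the right panel it is the highest embryo at 71.6 CPM.

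Set against the other RMER names of the same library, which removes a shift common to them, the pair stood out in knockout 2 only. Per 1000 counts in the 35 other names, RMER17A and RMER17A-int together had 42.1, 134 and 50.7 counts in knockouts 1, 2 and 3, against 46.6, 44.3 and 37.5 counts in controls 1, 2 and 3. Knockout 1 lay within the controls and knockout 3 just above them. On this scale RMER17D2 had 7.76, 5.91 and 6.17 counts in the knockouts, against 3.34, 4.04 and 3.99 in the controls, so that its groups stayed apart with the 3 knockouts close to each other. It had only 50 to 196 raw counts per library. How many names outside RMER17 are apart on this scale was not counted, so nothing particular to RMER17D2 is read from this. RMER17D had 9.90, 14.6 and 10.8 counts in the knockouts, against 14.8, 12.4 and 13.2 in the controls. RMER17C had 31.0, 20.9 and 29.8 counts in the knockouts, against 20.1, 17.5 and 24.0 in the controls, and overlapped.

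**Figure D5:**
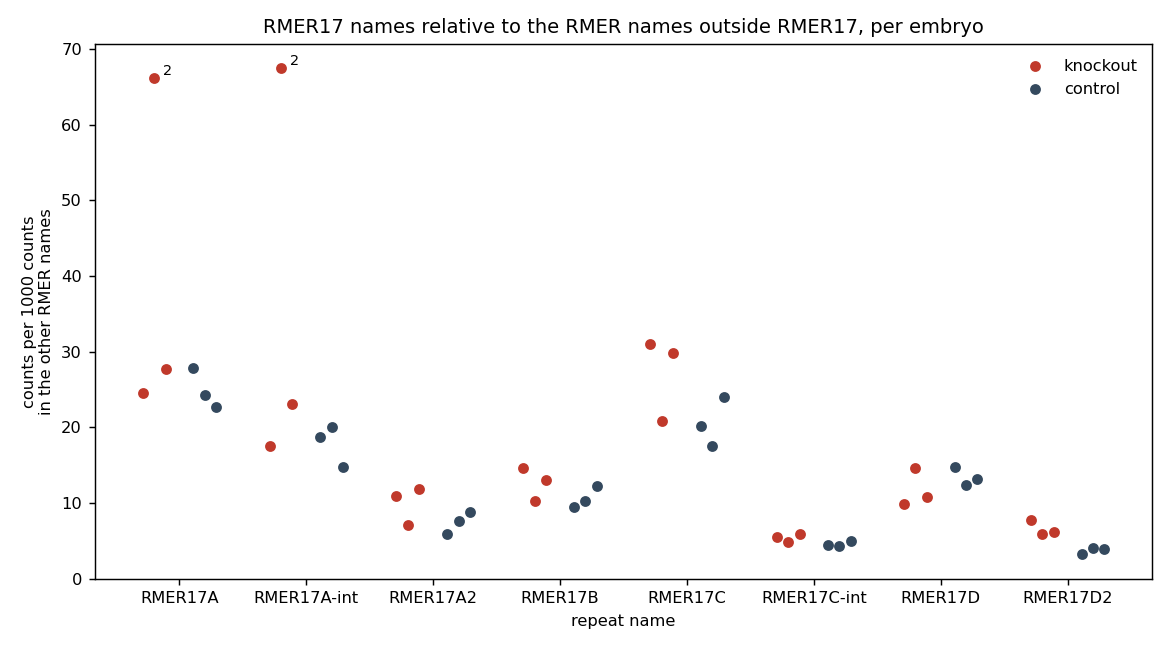
Counts of each RMER17 name per 1000 counts in the 35 other RMER names of the same library, with knockouts (red) left of controls (dark), 1 point per embryo in the order 1 to 3. Knockout 2 is at 66.1 for RMER17A and 67.4 for RMER17A-int, against at most 27.8 in any other embryo. The groups of RMER17D2 do not overlap, but names outside RMER17 were not put on this scale for comparison.

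Other ERVK elements were set beside RMER17. Of the 853 names tested, 9 had knockouts above all controls with knockout 2 highest: RMER17A, RMER17A-int, ETnERV3-int, an internal part of ETn-related elements, and 6 simple repeats, a pattern that was counted after the values were seen. ETnERV3-int had 42.6, 60.5 and 51.9 CPM in knockouts 1, 2 and 3, against 15.8, 26.5 and 24.6 CPM in controls 1, 2 and 3, in the same order of knockouts as RMER17A. All 5 ETn names were apart and summed to 775, 598 and 813 CPM in the knockouts, against 386, 527 and 466 CPM in the controls, with a median log2 fold change of 0.90, beside 10.3% of all names apart and higher and a median of 0.54. The 16 IAP names summed to 259, 169 and 233 CPM in the knockouts, against 158, 194 and 229 CPM in the controls, and overlapped, with a log2 ratio of 0.19. Most of that sum came from IAPEz-int and IAPEY3-int, and over the 14 IAP names tested the median log2 fold change was 0.67, with 3 names apart and higher. No difference between RMER17 and these elements was tested.

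Of 36 genes listed for silencing of retroviral repeats and deposition of H3.3, 34 were in the files and none was called by edgeR at a Benjamini-Hochberg adjusted p under 0.05, beside 0.484% of 15075 genes called higher and 0.683% lower. DESeq2 called none either. By edgeR 5 of the 34 had an unadjusted p under 0.05, beside 18.9% of all genes tested, and the median log2 fold change was 0.07, beside 0.055 over all genes, so the list did not stand out from the background. Dnmt1, the maintenance DNA methyltransferase, averaged 470 ± 34.8 CPM in knockouts and 401 ± 30.2 CPM in controls (SD, n = 3 each). Uhrf1, which brings Dnmt1 to replicating DNA, averaged 406 ± 22.0 CPM in knockouts and 360 ± 4.79 CPM in controls. Morc2a, which compacts chromatin with the silencing complex HUSH, averaged 146 ± 17.9 CPM in knockouts and 122 ± 8.60 CPM in controls. Cbx1, a reader of methylated histone H3, averaged 149 ± 7.47 CPM in knockouts and 169 ± 5.76 CPM in controls. Without knockout 2, edgeR called 4 of the 34, Dnmt1, Morc2a, Setdb1 and Ubn2, all higher, beside 10.2% of all genes called higher and 1.57% lower in that fit, a share near the background.

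Markers of other cells were read in the same libraries, where fewer cells of a type and less RNA per cell cannot be told apart. The 16 macrophage genes summed to 3.89 to 5.49 CPM in knockouts and 66.6 to 78.2 CPM in controls, with 13 of 15 tested called lower by edgeR and the complement genes C1qb and C1qc at 0 in every knockout. Cd68, a lysosomal protein of macrophages and one of those not called, had 2.32, 0.540 and 2.33 CPM in knockouts 1, 2 and 3, against 1.58, 1.38 and 2.20 CPM in controls 1, 2 and 3. The part of macrophages in the RMER levels was not tested. Of 12 trophoblast genes, 9 stayed under 1 CPM in every library, and the list summed to 15.9 to 19.1 CPM in knockouts and 15.002 to 18.7 CPM in controls. Genes listed for yolk sac endoderm summed to 127 to 245 CPM in knockouts and 205 to 309 CPM in controls, and the sums, mostly of Afp, overlapped. Of 8 tested, edgeR called 1, Ttr, a carrier of thyroid hormone, with 4.25, 3.02 and 2.40 CPM in knockouts 1, 2 and 3, against 11.9, 7.98 and 9.97 CPM in controls 1, 2 and 3, a log2 fold change of -1.63 with a Benjamini-Hochberg adjusted p of 0.016. Which cells of the whole embryos the transcripts of the trophoblast and yolk sac lists came from was not tested. Nor was the part of yolk sac cells in the RMER levels.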

How the data were processed

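The authors deposited 2 tables of raw whole-number counts per embryo, 1 per gene symbol and 1 per repeat name. Per the submitters' processing notes, reads were aligned to mm9, with Trimmomatic, TopHat2, Bowtie2 and HTSeq named. The sources used here give no versions, repeat annotation or strand setting. In the gene counts, alignments that were not unique, 18.2% to 22.6% per library, stand in a row of their own and were left out. How the repeat counts treated such alignments was not checked, so near-identical copies may be under-represented.

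CPM are counts over the total of gene counts of the same library. The quasi-likelihood test of edgeR 4.0.16 (R 4.3.3, robust, gene totals as library sizes) was run on repeat names and on genes that passed filterByExpr at min.count 10 and min.total.count 15. It was tested on simulated data first, and p-values were adjusted by Benjamini-Hochberg. In the simulation it called 40% of repeat names given a log2 change of 1 in either direction, and 97% of those given 2. A lack of calls among repeat names therefore does not show a lack of change. SE is the size of the log2 fold change divided by the root of the F statistic, and for sums the SE of the difference of mean log2 CPM. Members, lists and tests were chosen with earlier results of these data known. The text names all RMER17 names, the 8 most abundant other RMER names, and up to 4 silencing genes with the smallest p. RMER3D, RMER6-int, families, Setdb1, Ubn2, Cd68, Afp, Hand1, Ttr and elements outside RMER were chosen after their values were seen. Alternatives used other scalings, DESeq2 1.42.0, no filter, a replicate block and each library left out. No repeat sequence is shown, since none was used here.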

Additional observations from a re-analysis of the deposited data

How the results depend on the processing

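The log2 ratio of summed RMER17 counts was above 0 in all 17 alternatives, from 0.52 with TMM factors of the repeat counts to 1.20 with internal names only, and was 0.53 over the counts of the other RMER names (chosen after seeing the data). With the same 2 scalings RMER17A with RMER17A-int had 0.80 and 0.82. The fit with the share outside genes as a covariate was run on single names, not on sums. In it the median of the 8 RMER17 names was -0.008, with 4 of them above 0. With TMM factors of the repeat counts all RMER names summed had 0.049 and the other RMER names -0.0096, which takes the median shift of the repeats out. Leaving out single libraries gave 0.84 to 1.13 for RMER17, 0.90 to 1.29 for the RMER17A pair, 0.63 to 1.13 for RMER17 without it, 0.37 to 0.76 for the other RMER names and 0.43 to 0.79 for all.

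The number of repeat names called by edgeR, 0 with all libraries, ran from 0 to 574 without single libraries, that of RMER names from 0 to 33 and that of silencing genes from 0 to 4, the highest values all without knockout 2 and 0 without any other. Repeat and RMER calls numbered 16 and 3 with the share outside genes as a covariate, 2 and 1 with DESeq2, and 99 and 8 at an unadjusted p under 0.05. With the replicate number as a block they stayed at 0. The same-numbered embryos did not all deviate together, with correlations over genes of -0.10, 0.22 and 0.30 for numbers 1, 2 and 3. Of 632 values for single RMER names under the alternatives, 571 moved by less than the spread between replicates, and 46 were below 0. Why values moved was not tested, except where the scaling itself sets it. Names with few counts, down to 50 per library, limit what can be seen.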

Other observations

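The order of the knockouts in RMER17A-int, with knockout 2 highest and knockout 1 lowest, was also that of Adm, the adrenomedullin gene that responds to low oxygen, chosen after its values were seen. Adm had 3.49, 18.0 and 5.20 CPM in knockouts 1, 2 and 3, against 1.31, 1.48 and 1.30 CPM in controls 1, 2 and 3. Adm was not called by edgeR, at a Benjamini-Hochberg adjusted p of 0.089, and how many genes share this order was not counted. Vegfa, another gene that responds to low oxygen and was also chosen after its values were seen, had a different order. It had 88.3, 124 and 137 CPM in knockouts 1, 2 and 3, against 31.8, 36.8 and 50.2 CPM in controls 1, 2 and 3. Vegfa was called higher by edgeR, at a log2 fold change of 1.56 ± 0.20 (SE) and a Benjamini-Hochberg adjusted p of 0.010, beside 0.484% of 15075 genes called higher. No relation between either gene and the repeat was tested. The simple repeat of adenines split the knockouts another way, at 277, 250 and 692 CPM in knockouts 1, 2 and 3, against 654, 713 and 742 CPM in controls 1, 2 and 3. RMER counts made up 0.912%, 0.670% and 1.16% of all repeat counts in knockouts 1, 2 and 3, against 0.360%, 0.564% and 0.717% in controls 1, 2 and 3, with groups that overlapped. The total under this share was lower on average in knockouts. All repeat names summed to 106129 ± 15933 CPM in knockouts and 124859 ± 22660 CPM in controls (SD, n = 3 each), with groups that overlapped.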
